A study of Homo sapiens with 6 samples.

Results

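Ferroptosis is a form of cell death in which iron drives the peroxidation of polyunsaturated membrane lipids. Cells hold it back by importing cystine to make glutathione, which the selenoenzyme GPX4 spends to reduce lipid peroxides, and they set the supply of reactive iron by taking iron up through the transferrin receptor and storing it in ferritin. The tumour suppressor p53 is known to touch this balance, by repressing the cystine transporter SLC7A11 and by inducing the polyamine enzyme SAT1. A set of 10 genes of this system was followed here, picked by name: the cystine transporter subunits SLC7A11 and SLC3A2, the antioxidant enzymes GPX4 and AIFM2, the lipid-activating enzymes ACSL3 and ACSL4, the polyamine enzyme SAT1, the ferritin chains FTH1 and FTL, and the transferrin receptor TFRC. All 10 are among the 57905 genes counted, and all 10 are among the 16565 genes that passed the low-count filter of edgeR.

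RNA was sequenced from HCT116, a human colorectal carcinoma line with wild-type p53. Treated cells received 10 µM Nutlin-3a, a small molecule that blocks the binding of p53 to its inhibitor MDM2, for 1 h (Nut 1h) or 10 h (Nut 10h). Control cells (Nut 0h) received the vehicle DMSO and served both comparisons, so the values at 1 h and at 10 h share their controls. Each of the 3 groups had 2 biological replicates of this single cell line, giving 6 libraries, and the p-values measure only the spread between these libraries. Counts per library summed to between 26068076 and 35473485, and the members' counts ranged from 738 for SLC7A11 to 44145 for FTL. Replicates of a group differed by 5.13 to 16.7 times counting noise (chi-square per degree of freedom over genes). Values below are normalized counts, that is, counts divided by the library size after TMM scaling and multiplied by the mean of those sizes. Differences are log2 fold changes with their standard error (SE) from edgeR's quasi-likelihood test, called at a Benjamini-Hochberg adjusted p of at most 0.05 over all tested genes.

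The treatment showed in the p53 targets. MDM2 rose by 2.19 ± 0.126 (log2, SE) at 1 h and by 3.75 ± 0.133 at 10 h, and the cell cycle inhibitor CDKN1A rose by 3.84 ± 0.113 at 10 h, with a value of 0.05 ± 0.101 at 1 h (adjusted p = 0.704, edgeR). The epithelial markers EPCAM, KRT8, KRT18, KRT19, CDH1 and CDX2 were expressed, whereas KRT20, VIL1 and CDX1 stayed at or below 1.08 CPM (counts scaled to a common library total). The summed level of all 9 epithelial markers was 4976 to 5861 CPM at Nut 0h, 3393 to 3692 CPM at Nut 1h and 6246 to 7486 CPM at Nut 10h, and the part of this movement in the results was not tested. Of 8 markers of other cell types, 7 were found, and PTPRC, CD3E, COL3A1, HBB and HBA1 did not exceed 0.152 CPM in any library. Their sum, 24.3 to 42.8 CPM, was almost all COL1A1.

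Iron stores and iron uptake are tied together by the iron-responsive element (IRE), a short hairpin in the messenger RNA that iron regulatory proteins bind when iron is scarce. Bound in front of the coding sequence, as in ferritin mRNA, they block translation, and bound behind it, as in TFRC mRNA, they protect the transcript from decay. A search of the reference transcripts (GENCODE annotation lifted to GRCh37, the Ensembl canonical transcript of each gene) for this hairpin, written as a C, 5 stem bases, the loop CAGTGN with a last base other than G, and 5 bases that pair with the stem (G with T allowed), found a match in 184 of 19123 coding genes (0.962%). TFRC held 4 matches and was the only gene with 3 or more, while FTL and FTH1 held 1 each and the 7 other members none. The sites of TFRC and FTL are printed below, read 5′ to 3′ on the transcript with the loop in capitals. The site of FTH1 is not printed. A match is a description of the letters and not a measured binding site.
TFRC site 1: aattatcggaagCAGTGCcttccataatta
TFRC site 2: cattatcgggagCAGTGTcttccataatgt
TFRC site 3: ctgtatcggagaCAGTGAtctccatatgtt
TFRC site 4: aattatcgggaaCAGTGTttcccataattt
FTL site 1: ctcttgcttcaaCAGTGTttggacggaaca

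The TFRC sites lie in the 3′ UTR on the minus strand, at chr3:195777849-195777878, chr3:195777445-195777474, chr3:195777380-195777409 and chr3:195777333-195777362. The FTL site lies in the 5′ UTR on the plus strand, at chr19:49468592-49468621, which is bases 27 to 56 of the transcript.

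The ferritin chains and the transferrin receptor moved in opposite directions at 1 h. FTH1 (chr11:61727190-61735106, minus strand), the ferritin heavy chain that oxidizes iron for storage, counted 37440 and 27950 in control, 4690 and 6176 after 1 h, and 29727 and 27805 after 10 h. Both Nut 1h libraries lay far below the other 4, and the Nut 0h and Nut 10h libraries overlapped. The fall at 1 h was 83.4% of the control mean, a log2 fold change of −2.59 ± 0.151 (adjusted p = 4.11e-08, edgeR), the largest in size among the 10 genes at that time. Among all 16565 tested genes it ranked 155 from the lowest fold change at 1 h. At 10 h FTH1 stood at −0.18 ± 0.142 against control (adjusted p = 0.364, edgeR; 95% interval −0.489 to 0.120), or −0.39 and called without Nut 0h replicate 2. From 1 h to 10 h it rose by 2.41 ± 0.150 (adjusted p = 1.14e-08). In bulk RNA scaled to the library, fewer cells with a transcript and less of it per cell cannot be told apart. FTL (chr19:49468566-49470136, plus strand), the light chain that helps to form the mineral core, counted 39189 and 34765 in control, 19979 and 22610 after 1 h, and 42679 and 39516 after 10 h. It was lowest in the same 2 libraries and did not overlap between any of the groups. FTL fell by 0.80 on the log2 scale at 1 h (SE 0.104, adjusted p = 1.28e-05, edgeR; −0.26 and still called with a GC-content offset, described further on) and was 0.15 ± 0.103 at 10 h (adjusted p = 0.295; 95% interval −0.069 to 0.373).

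The 95% intervals of the 1 h fold changes did not overlap between the heavy chain (−2.92 to −2.27) and the light chain (−1.02 to −0.57). Read within a library, which needs no scaling between libraries, the ratio of FTL to FTH1 counts was 1.05 and 1.24 in control, 4.26 and 3.66 after 1 h, and 1.44 and 1.42 after 10 h. Each Nut 1h library was thus above all others, and the Nut 10h pair stood slightly above the control pair. Both genes have processed pseudogenes, which can take reads from the parent gene. The FTH1 pseudogenes (25 by symbol, 18 with any count) held 0.363% to 0.932% of the summed reads at Nut 0h and Nut 10h and 4.06% and 2.85% at Nut 1h, where their counts of 198 and 144 lay within the range of 141 to 281 seen in all libraries. For FTL the share was 0.255% to 0.352% in every library.

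TFRC (chr3:195739382-195809024, minus strand), which carries transferrin-bound iron into the cell, counted 7362 and 8692 in control, 15748 and 15880 after 1 h, and 5134 and 6221 after 10 h. The 3 groups were fully separated, with Nut 1h highest and Nut 10h lowest. TFRC rose by 0.98 ± 0.112 at 1 h (adjusted p = 4.23e-06, edgeR; 0.39 and still called with the GC-content offset), fell by 0.50 on the log2 scale at 10 h against control (SE 0.112, adjusted p = 0.00408), and fell by 1.48 from 1 h to 10 h (SE 0.114, adjusted p = 7.85e-08; −0.91 and still called with the offset). The ratio of TFRC to FTH1 counts gathers both movements in 1 value per library, and it was 0.197 and 0.311 in control, 3.36 and 2.57 after 1 h, and 0.173 and 0.224 after 10 h. At 1 h the receptor therefore had more reads than the ferritin heavy chain in both libraries, and in the other 4 libraries fewer. The counts in this ratio carry no offset, and the transcripts have 41.0% and 50.0% GC. Nor are they scaled for length, and TFRC is the longer transcript. Per kb of exon FTH1 stayed above TFRC at Nut 1h, with means of 2711 and 910.1 normalized counts. Per kb of the canonical transcript these means were 4516 and 3155.

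**Figure D1:**
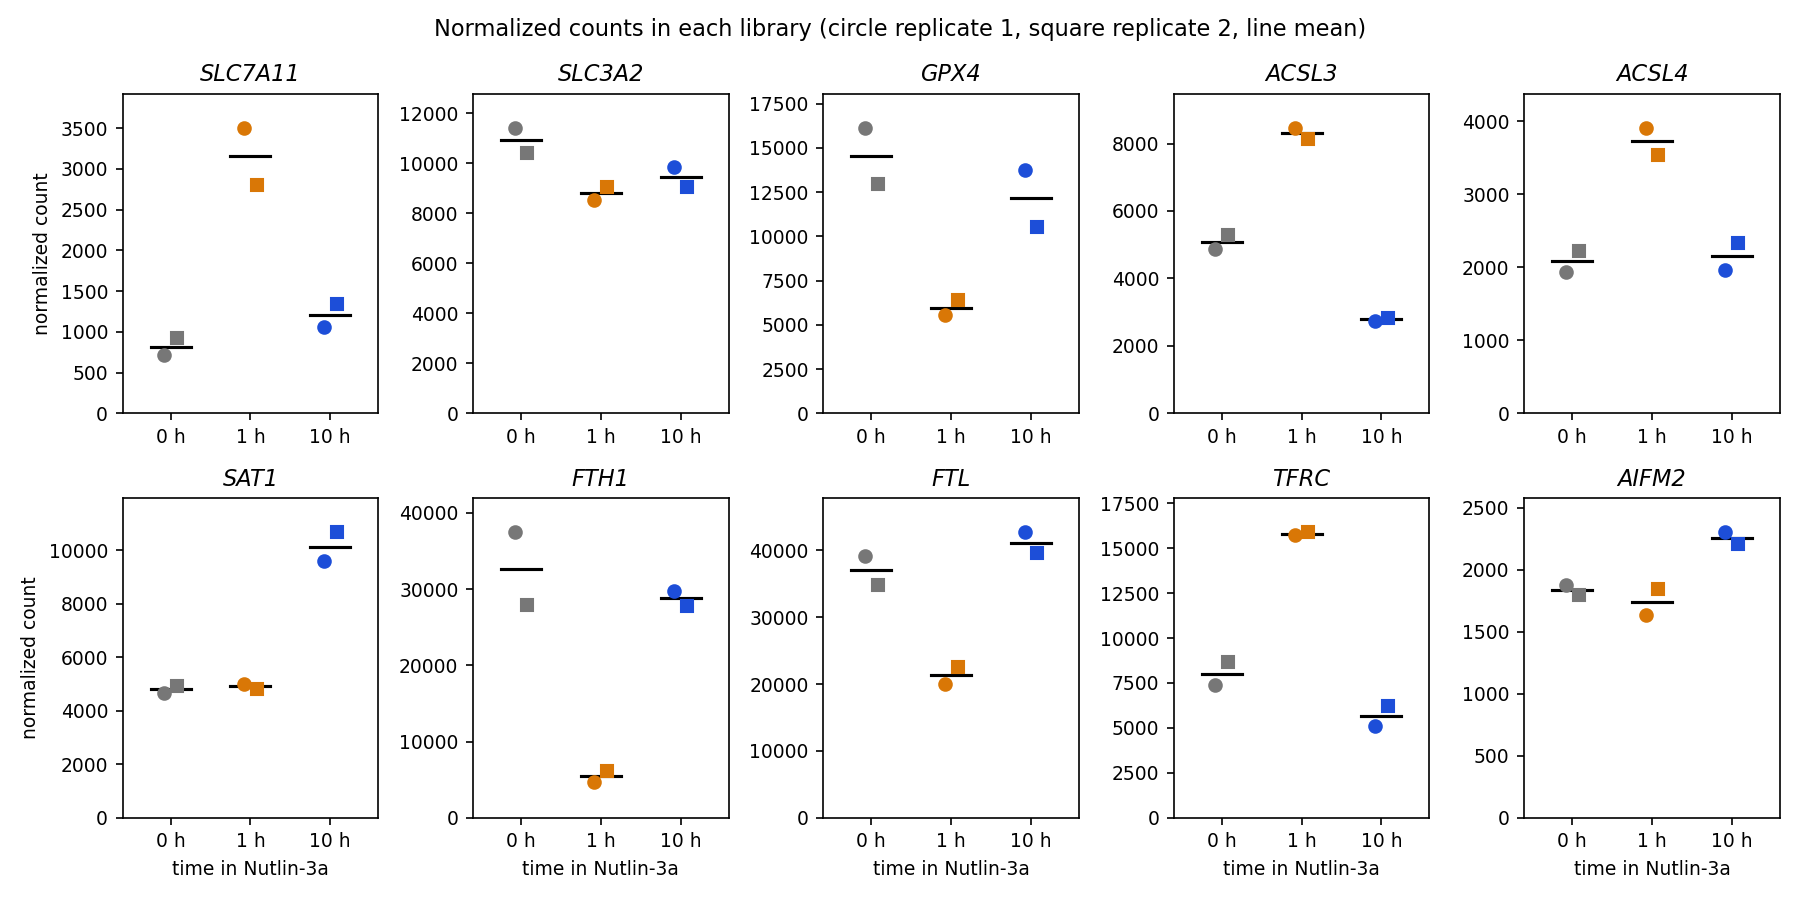
Normalized counts (vertical axes, from 0, a scale for each gene) of the 10 genes at 0, 1 and 10 h of Nutlin-3a, with circles for replicate 1, squares for replicate 2 and lines for the mean of each group. FTH1, FTL and GPX4 dip at 1 h, SLC7A11, ACSL3, ACSL4 and TFRC peak there, and SAT1 is higher only in the 2 libraries of 10 h.

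The cystine transporter was followed through both of its chains. SLC7A11 (chr4:139085251-139163503, minus strand), the light chain that exchanges glutamate for cystine, counted 713 and 924 in control, 3504 and 2800 after 1 h, and 1063 and 1347 after 10 h. The groups did not overlap, and the Nut 1h libraries were the highest. SLC7A11 rose by 1.95 ± 0.149 at 1 h, a 3.85-fold increase (adjusted p = 2.19e-07, edgeR; 1.07 and still called with the GC-content offset), the largest rise among the 10 genes at that time. It was still 0.56 ± 0.148 above control at 10 h (adjusted p = 0.0116), although without Nut 0h replicate 1 this value was 0.38 and no longer called (adjusted p = 0.0856), and it fell by 1.39 from 1 h to 10 h (SE 0.145, adjusted p = 1.43e-06; −0.53 and still called with the offset). SLC3A2 (chr11:62623476-62656352, plus strand), the heavy chain that SLC7A11 and several other amino acid transporters need to reach the membrane, counted 11420 and 10403 in control, 8519 and 9070 after 1 h, and 9846 and 9060 after 10 h. Control libraries were highest, and those of 1 h and 10 h overlapped. SLC3A2 fell by 0.31 on the log2 scale at 1 h (SE 0.095, adjusted p = 0.0101, edgeR) and was −0.21 ± 0.095 at 10 h (adjusted p = 0.120; 95% interval −0.411 to −0.003). The call at 1 h was lost without Nut 0h replicate 1 (adjusted p = 0.105) and without Nut 1h replicate 1 (adjusted p = 0.121), and with the GC-content offset the value was 0.05 and not called. The count ratio of the chains, SLC3A2 over SLC7A11, went from 16.0 and 11.3 in control to 2.43 and 3.24 after 1 h, and was 9.26 and 6.73 after 10 h, without overlap between groups. It carries no offset, and the transcripts have 53.8% and 35.4% GC.

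**Figure D2:**
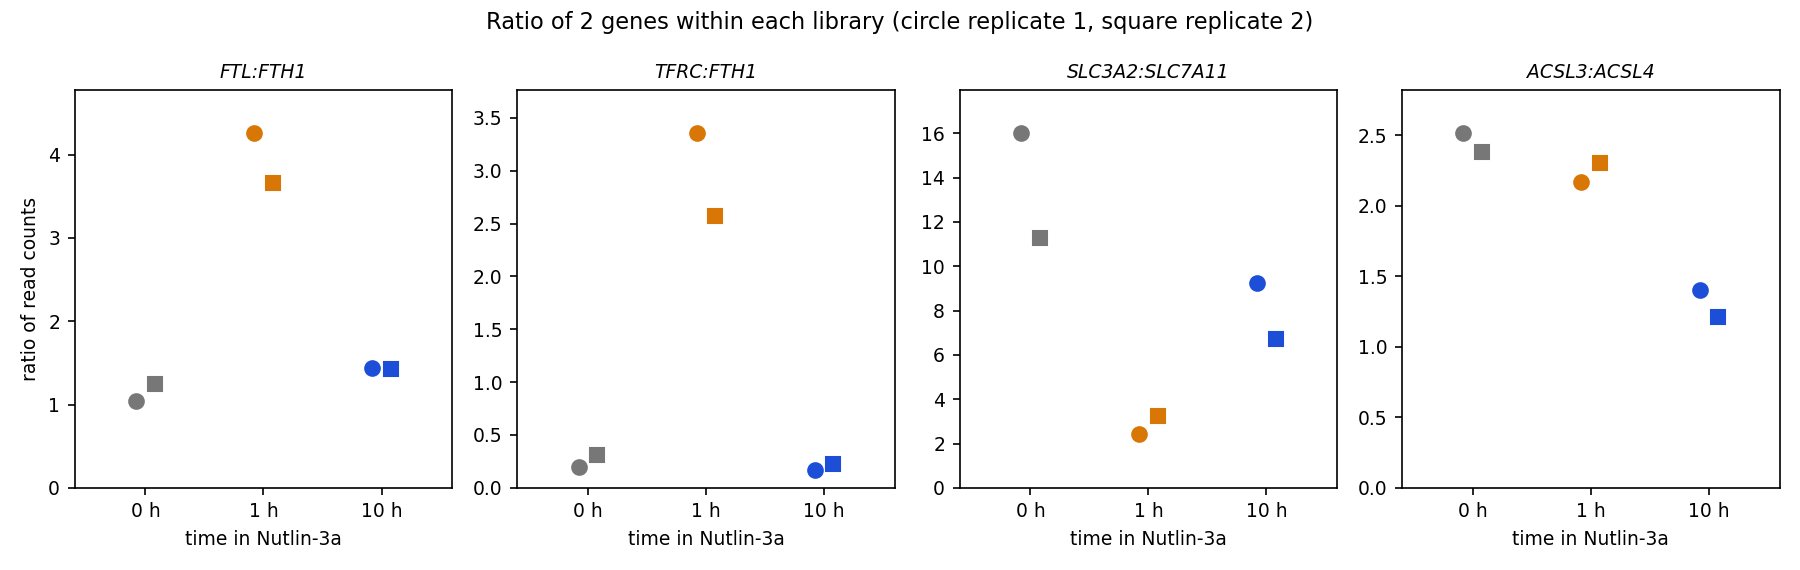
Ratio of the read counts of gene pairs within each library (vertical axes, from 0), with circles for replicate 1 and squares for replicate 2. FTL:FTH1 and TFRC:FTH1 peak at 1 h, SLC3A2:SLC7A11 is lowest there, and ACSL3:ACSL4 is lowest at 10 h, where it was 1.40 and 1.21.

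Of the enzymes that remove lipid radicals, GPX4 (chr19:1103981-1106790, plus strand), which reduces phospholipid hydroperoxides with glutathione, counted 16130 and 12953 in control, 5538 and 6402 after 1 h, and 13746 and 10529 after 10 h. The 2 libraries of 1 h were the lowest, and control overlapped with 10 h. GPX4 fell by 1.28 on the log2 scale at 1 h (SE 0.137, adjusted p = 2.36e-06, edgeR; −0.24 and still called with the GC-content offset) and rose by 1.02 ± 0.137 from 1 h to 10 h (adjusted p = 1.41e-05), of which 0.03 was left, not called, with the GC-content offset. At 10 h it was −0.26 ± 0.135 against control (adjusted p = 0.167; 95% interval −0.550 to 0.029), a difference that was called without Nut 0h replicate 2 (−0.42) or without Nut 10h replicate 1 (−0.46). AIFM2 (chr10:71857979-71892690, minus strand), also known as FSP1, regenerates ubiquinol as a radical trap that does not depend on glutathione. Its libraries counted 1875 and 1792 in control, 1632 and 1846 after 1 h, and 2300 and 2204 after 10 h, so that the 10 h libraries lay above the others. AIFM2 was −0.08 ± 0.096 at 1 h (adjusted p = 0.498, edgeR; 95% interval −0.284 to 0.130; 0.47 and called higher with the GC-content offset) and rose by 0.30 ± 0.096 at 10 h (adjusted p = 0.0315). This last call was lost with DESeq2 (adjusted p = 0.0662) and when any library but Nut 10h replicate 2 was left out (adjusted p from 0.0687 to 0.166). Exons of AIFM2 overlap those of MACROH2A2 on the opposite strand, which held 1293 to 2413 counts per library, and how the counting treated strand is not given in the sources used here.

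ACSL3 and ACSL4 load fatty acids onto coenzyme A before they enter membranes, ACSL4 with a preference for polyunsaturated chains, the substrates of peroxidation, and ACSL3 acting also on monounsaturated ones. ACSL4 (chrX:108867473-108976632, minus strand) counted 1938 and 2222 in control, 3908 and 3536 after 1 h, and 1957 and 2335 after 10 h. It rose by 0.84 ± 0.110 at 1 h (adjusted p = 1.39e-05, edgeR) and was 0.04 ± 0.110 at 10 h (adjusted p = 0.80; 95% interval −0.192 to 0.282), where the libraries overlapped with control. With the GC-content offset the 1 h value was −0.03 and not called. ACSL3 (chr2:223725660-223809357, plus strand) counted 4877 and 5289 in control, 8468 and 8149 after 1 h, and 2743 and 2835 after 10 h. Its groups were fully separated, in the same order as those of TFRC. ACSL3 rose by 0.71 ± 0.091 at 1 h (adjusted p = 1.10e-05, edgeR) and fell by 0.87 on the log2 scale at 10 h (SE 0.092, adjusted p = 6.80e-06), which was 45.1% below the control mean. From 1 h to 10 h it fell by 1.57 (SE 0.093, adjusted p = 6.99e-09). The offset on GC content took the 1 h value to −0.08, not called, left the 10 h value at −0.88 and took the fall from 1 h to 10 h to −0.80, still called. The count ratio of ACSL3 to ACSL4 was 2.52 and 2.38 in control, 2.17 and 2.30 after 1 h, and 1.40 and 1.21 after 10 h, and was lowest in both libraries of 10 h.

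SAT1 (chrX:23801290-23804327, plus strand) acetylates spermidine and spermine, the step that commits polyamines to export or oxidation. It counted 4658 and 4936 in control, 5002 and 4825 after 1 h, and 9582 and 10667 after 10 h. The control and 1 h libraries overlapped, and both 10 h libraries lay well above them. SAT1 rose by 1.08 ± 0.094 at 10 h, a 2.11-fold increase (adjusted p = 9.49e-07, edgeR), the largest rise among the 10 genes at that time. At 1 h the difference was 0.03 ± 0.094 (adjusted p = 0.757; 95% interval −0.167 to 0.236; −0.42 and called lower with the GC-content offset), and the rise from 1 h to 10 h was 1.04 ± 0.094 (adjusted p = 3.54e-07).

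Counted together, 4 of the 10 genes rose at 1 h, 4 fell and 2 did not pass the test, where 66.9% of all tested genes were called (34.5% higher and 32.3% lower). At 10 h against control 3 rose, 2 fell and 5 did not pass, where 29.0% of all tested genes were called (14.1% higher and 14.9% lower). Between 10 h and 1 h, 5 were higher and 4 lower, where 67.9% of all tested genes were called (34.2% higher and 33.7% lower). Libraries of the 2 groups did not overlap for 8 of the 10 genes between 1 h and control, for 7 between 10 h and control and for 9 between 10 h and 1 h, where this held for 84.8%, 61.4% and 85.0% of all tested genes. The members' median log2 fold change was −0.02 at 1 h and −0.07 at 10 h, beside 0.05 and 0.00017 over all tested genes, and their median size regardless of sign was 0.82 at 1 h and 0.28 at 10 h, beside 0.63 and 0.27. These counts were not tested against the background, and without Nut 0h replicate 1 only 1 member rose at 10 h in place of 3.

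**Figure D3:**
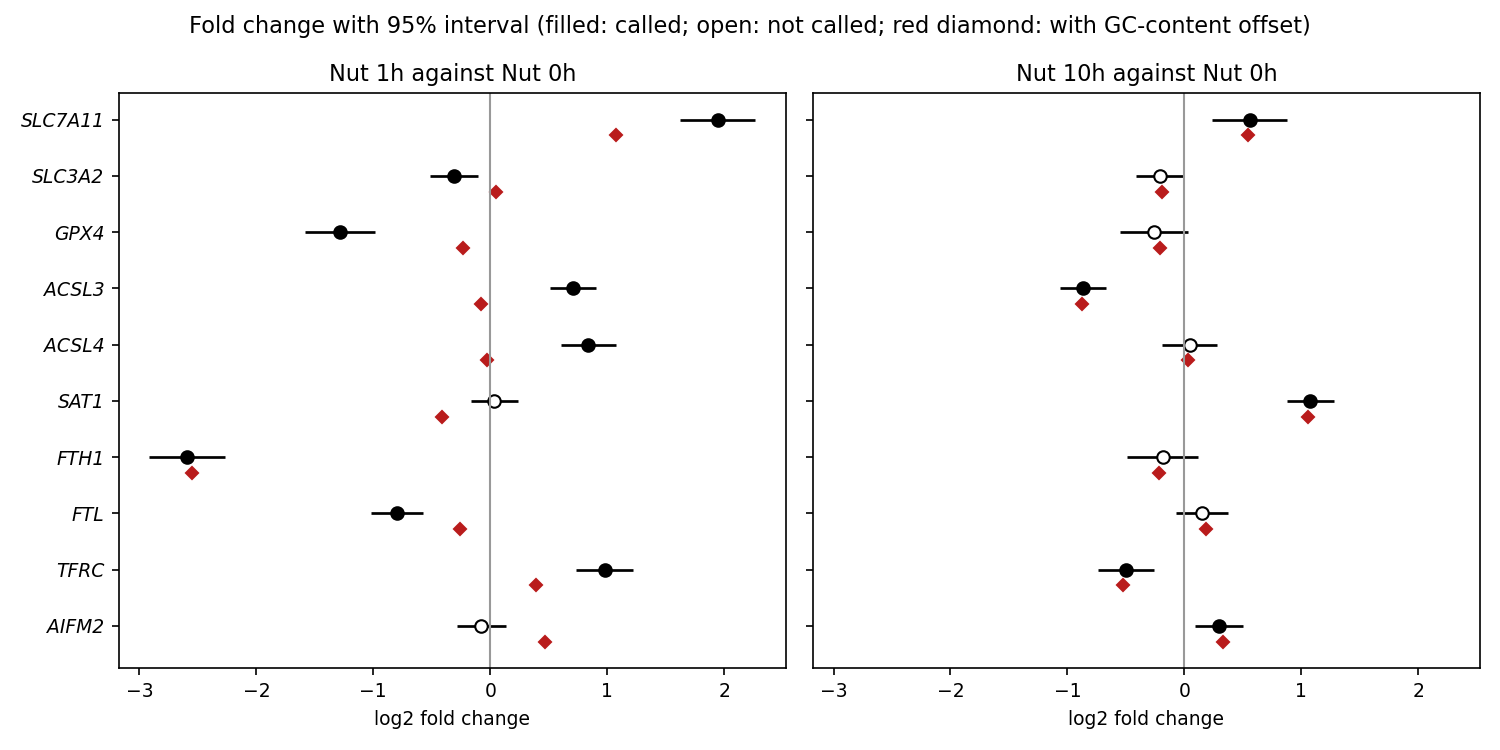
Log2 fold change of each gene against Nut 0h (horizontal axis) at 1 h on the left and at 10 h on the right, with 95% intervals as lines, filled circles for genes called at an adjusted p of at most 0.05 and open circles for the others. Red diamonds give the value with the GC-content offset, which moved most genes at 1 h and few at 10 h.

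Base composition moved with the 1 h values. Across the 16137 tested genes with a known GC content, the log2 fold change at 1 h correlated with the GC content of the longest transcript with r = −0.689, and at 10 h with r = −0.026 (a description across genes, which are not independent replicates). The members span this range: SLC7A11, ACSL4 and ACSL3 have 35.4%, 35.5% and 37.1% GC, TFRC 41.0%, SAT1 43.3%, FTH1 50.0%, SLC3A2 53.8%, FTL 56.0%, AIFM2 56.1% and GPX4 62.5%. Set beside the 981 tested genes within 1 percentage point of its GC content, whose median was −0.02 at 1 h, FTH1 was at percentile 0.204. SLC7A11 was at percentile 95.6 of genes of like GC content (median 0.87), TFRC at 81.3 (median 0.60), AIFM2 at 78.6 (median −0.56) and SAT1 at 17.9 (median 0.45). ACSL3 (percentile 40.6), ACSL4 (45.2), SLC3A2 (53.7), GPX4 (27.8) and FTL (28.4) lay nearer the middle of their like genes.

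When a smooth GC-content trend was taken out of each library, 46.2% of all tested genes were called at 1 h. FTH1 was then −2.55 ± 0.133, SLC7A11 1.07 ± 0.092, TFRC 0.39 ± 0.070, FTL −0.26 ± 0.070 and GPX4 −0.24 ± 0.077, and these 5 kept their calls and directions. ACSL3 (−0.08 ± 0.064), ACSL4 (−0.03 ± 0.063) and SLC3A2 (0.05 ± 0.063) were no longer called at 1 h. SAT1 was called lower (−0.42 ± 0.061) and AIFM2 higher (0.47 ± 0.068) at 1 h. For SAT1 an offset on transcript length gave 0.31 ± 0.097 at 1 h, called in the other direction. The fall of ferritin heavy chain and the rises of SLC7A11 and TFRC were therefore measured with and without the offset, at sizes that differed for the latter 2 genes. At 10 h the values barely moved, with SAT1 at 1.05 ± 0.060, ACSL3 at −0.88 ± 0.066, SLC7A11 at 0.54 ± 0.095, TFRC at −0.52 ± 0.071 and AIFM2 at 0.33 ± 0.067, all called, and with SLC3A2 (−0.19), GPX4 (−0.21) and FTL (0.18) called as well, where 39.1% of all tested genes were. The FTL call was lost when the replicate block was added to the offset. Mitochondrial genes also took different shares of the counts, 4.99% to 6.18% in control, 8.15% to 8.44% after 1 h and 6.45% to 7.06% after 10 h. The part of base composition and of the mitochondrial share in the 1 h differences was not tested.

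**Figure D4:**
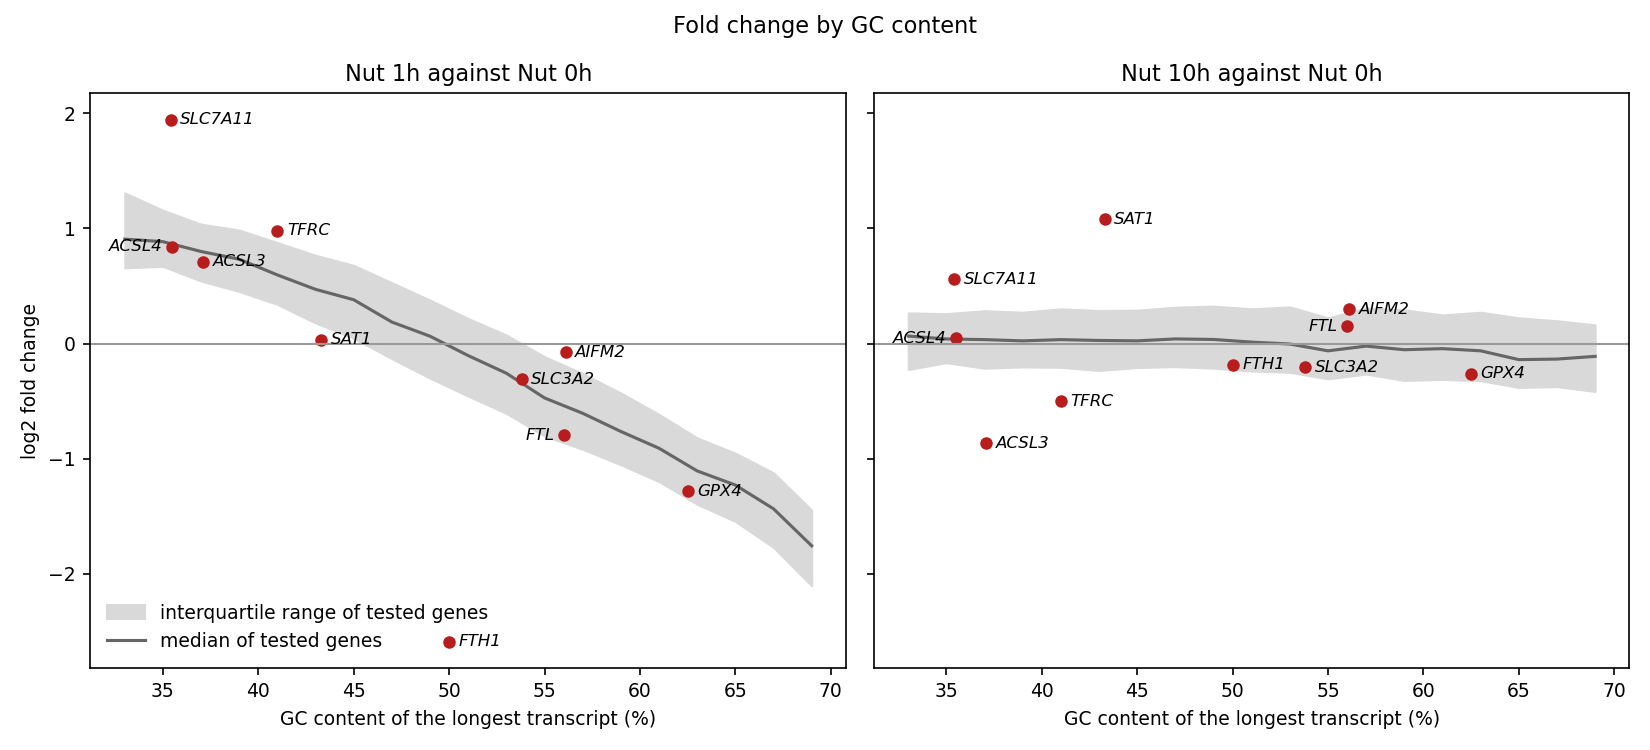
Log2 fold change against Nut 0h (vertical axis) by GC content of the longest transcript in percent (horizontal axis), at 1 h on the left and 10 h on the right. The grey line and band give the median and the interquartile range of tested genes in bins of 2 percentage points, and the red points are the 10 genes: at 1 h FTH1 and SLC7A11 stand farthest from the band, and at 10 h SAT1 and ACSL3 do.

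Levels between genes were compared per kilobase of exon. At Nut 0h the 2 libraries gave 39910 to 44990 normalized counts per kb for FTL, 13950 to 18680 for FTH1, and 7039 to 8766 for GPX4. Next came SAT1 with 1877 to 1989, SLC3A2 with 1628 to 1787 and TFRC with 423.7 to 500.2. The lowest were 348.9 to 365.1 for AIFM2, 337.8 to 366.4 for ACSL3, 194.4 to 222.8 for ACSL4 and 73.9 to 95.8 for SLC7A11. Of neighbours in this order, AIFM2 and ACSL3 did not differ beyond their spread. Ferritin and GPX4 were the most abundant and the cystine transporter light chain the least, by over 2 orders of magnitude from FTL. With the length of the canonical transcript in place of all exons, an alternative chosen after the data were seen, SLC3A2 (5519 to 6058 per kb) stood above SAT1 (4440 to 4705), and ACSL3 (874.5 to 948.3) above AIFM2 (571.7 to 598.2).

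Promoter sequences from RefSeq (GRCh38.p14, a short window around each annotated start site) matched 8 of the 10 members, and SLC7A11 and FTH1 are not in that table. The antioxidant response element that NRF2 binds, written TGACNNNGC and searched on both strands, was found as TGACTCAGC in a promoter of SLC3A2 (chr11:62881449-62881748) and in that of AIFM2 (chr10:70132776-70133075), and 13.3% of the 35116 promoters in the table hold a match. The amino acid response motif TGATGNAA, known from ATF4 targets, was found as TGATGTAA in the same promoter of SLC3A2, beside 3.62% of all promoters. No member promoter held the p53 half-site, which 6.63% of all promoters hold, and this says only that these letters are not in these windows.

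The wider pathway was read from 9 lists of other genes, 115 in all, of which 105 were tested. At 1 h 36 rose, 39 fell and 30 did not pass the test, and at 10 h 19 rose, 20 fell and 66 did not, where 66.9% and 29.0% of all tested genes were called. The pathway counts were not tested against that background. Their median log2 fold change was −0.08 at 1 h and 0.005 at 10 h. With the GC-content offset, 17 of the 36 rises and 17 of the 39 falls at 1 h remained, while 3 of the rises became falls, 6 of the falls became rises and 16 of each were not called. All 39 calls at 10 h remained. The offset also added calls, 3 higher and 11 lower at 1 h and 6 higher and 9 lower at 10 h. With it 46.2% of all tested genes were called at 1 h and 39.1% at 10 h. How many calls of all tested genes it kept, turned or added is not given here. NCOA4, called higher at both times, has no known GC content, so the offset could not act on its calls. By role, 15 tested genes of cellular iron uptake, release and sensing gave 6 rises and 5 falls at 1 h, and 4 of each at 10 h. At 1 h 2 rises and 3 falls stood with the offset. These 2 rises include NCOA4 (0.31 with and without it), on which the offset could not act. IREB2, an iron regulatory protein that binds the IRE, rose by 1.05 ± 0.121 at 1 h (0.31 with the GC-content offset), and PCBP1, which delivers iron to ferritin, fell by 1.13 (−0.68 with the offset). NCOA4, the receptor that sends ferritin to the lysosome, rose by 0.55 ± 0.091 at 10 h (adjusted p = 0.000467, edgeR), and PROM2, which promotes the export of ferritin, rose by 2.10 ± 0.126, from 221 to 945 normalized counts, while the metal importer SLC39A8 fell by 0.62. Among 15 tested genes of mitochondrial iron and iron-sulfur clusters, 3 rose and 7 fell at 1 h. With the offset 6 of these falls stood and 1 became a rise, 3 uncalled genes were called lower, 1 rise became a fall and 2 rises were not called. At 10 h 2 rose and 3 fell. FDXR, the ferredoxin reductase, fell by 0.61 at 1 h (0.38 and called higher with the offset) and rose by 2.31 ± 0.115 at 10 h, from 3758 to 18571. The scaffold protein ISCU rose by 0.98 ± 0.092 at 10 h, while GLRX5, which passes on the clusters, fell by 0.65.

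Around SLC7A11, 13 genes of cystine uptake and glutathione supply gave 6 rises and 3 falls at 1 h and 3 rises and 1 fall at 10 h. Of all tested genes, 66.9% were called at 1 h and 29.0% at 10 h. With the GC-content offset 4 of these 6 rises and 1 of the 3 falls, that of CHAC1, stood at 1 h, and GCLM turned from 0.30 to −0.48, called lower. CTH, which makes cysteine from cystathionine, rose by 0.54 ± 0.134 at 10 h. GSS, glutathione synthetase, rose by 0.31 ± 0.092 at 10 h and GCLM, a subunit of the rate-limiting enzyme of glutathione synthesis, fell by 0.27 (SE 0.092). Of the 5 other partners of SLC3A2, 2 fell at 1 h and 3 did not pass, where 32.3% of all tested genes fell. Neither fall stood with the GC-content offset: SLC7A5 went from 42865 to 25299, a fall of 0.76 that became a rise of 0.18, and SLC7A8 fell by 0.58, which became −0.29 and was not called. The NRF2 axis, the main antioxidant programme, had 6 falls and 2 rises among 9 genes at 1 h, and 2 of the falls stood with the offset. SRXN1 fell from 585 to 38.1, by 3.98 (−3.79 with the offset). The rises were NFE2L2, the gene of NRF2, by 0.45 (−0.17 and not called with the offset), and BACH1 by 1.03 (0.31 and still called). The fall of KEAP1 at 1 h, 0.69, became a rise of 0.22, called, with the offset. At 10 h 2 of the 9 rose, 1 fell and 6 did not pass. HMOX1, which frees iron from haem, rose by 0.40 ± 0.122 and NQO1 by 0.33 ± 0.088, and KEAP1, which targets NRF2 for degradation, fell by 0.35 (SE 0.108).

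Of 8 tested genes of selenoprotein synthesis and other glutathione peroxidases, GPX1 fell by 1.68 at 1 h (−0.48 with the offset) and rose by 0.81 ± 0.112 at 10 h, when GPX8 fell by 0.81. The 21 tested genes of polyunsaturated lipid handling and peroxidation gave 8 rises and 7 falls at 1 h, where 34.5% of all tested genes rose and 32.3% fell. With the GC-content offset 4 of these rises and 2 of these falls stood. At 10 h the list gave 5 rises and 5 falls, where 14.1% of all tested genes rose and 14.9% fell. ALOX5, a lipoxygenase, rose by 2.87 ± 0.197 from 37.3 to 272.6, while MBOAT1 and MBOAT2, which place monounsaturated chains in phospholipids, fell by 0.68 and 0.74. Next to SAT1, 10 genes of polyamine turnover included 1 that rose at 10 h, SAT2 (0.70 ± 0.102), and 2 that fell, SRM, which makes spermidine (by 0.48), and ODC1, the first enzyme of the pathway (by 0.32). At 1 h 4 of the 10 rose and 5 fell. With the offset 3 of these rises and 1 of these falls stood, and 2 falls became rises. Among 9 genes of radical-trapping quinone and sterol routes 4 rose and 2 fell at 1 h, of which 2 rises and 1 fall stood with the offset. GCH1 rose by 1.04 at 1 h (0.57 and still called with the offset), and DHCR7 fell by 0.73 (−0.03 and not called). At 10 h 3 of the 9 fell and 6 did not pass, where 14.9% of all tested genes fell. At that time DHCR7 fell by 0.67, PDSS1 by 0.52 and VKORC1L1 by 0.42.

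**Figure D5:**
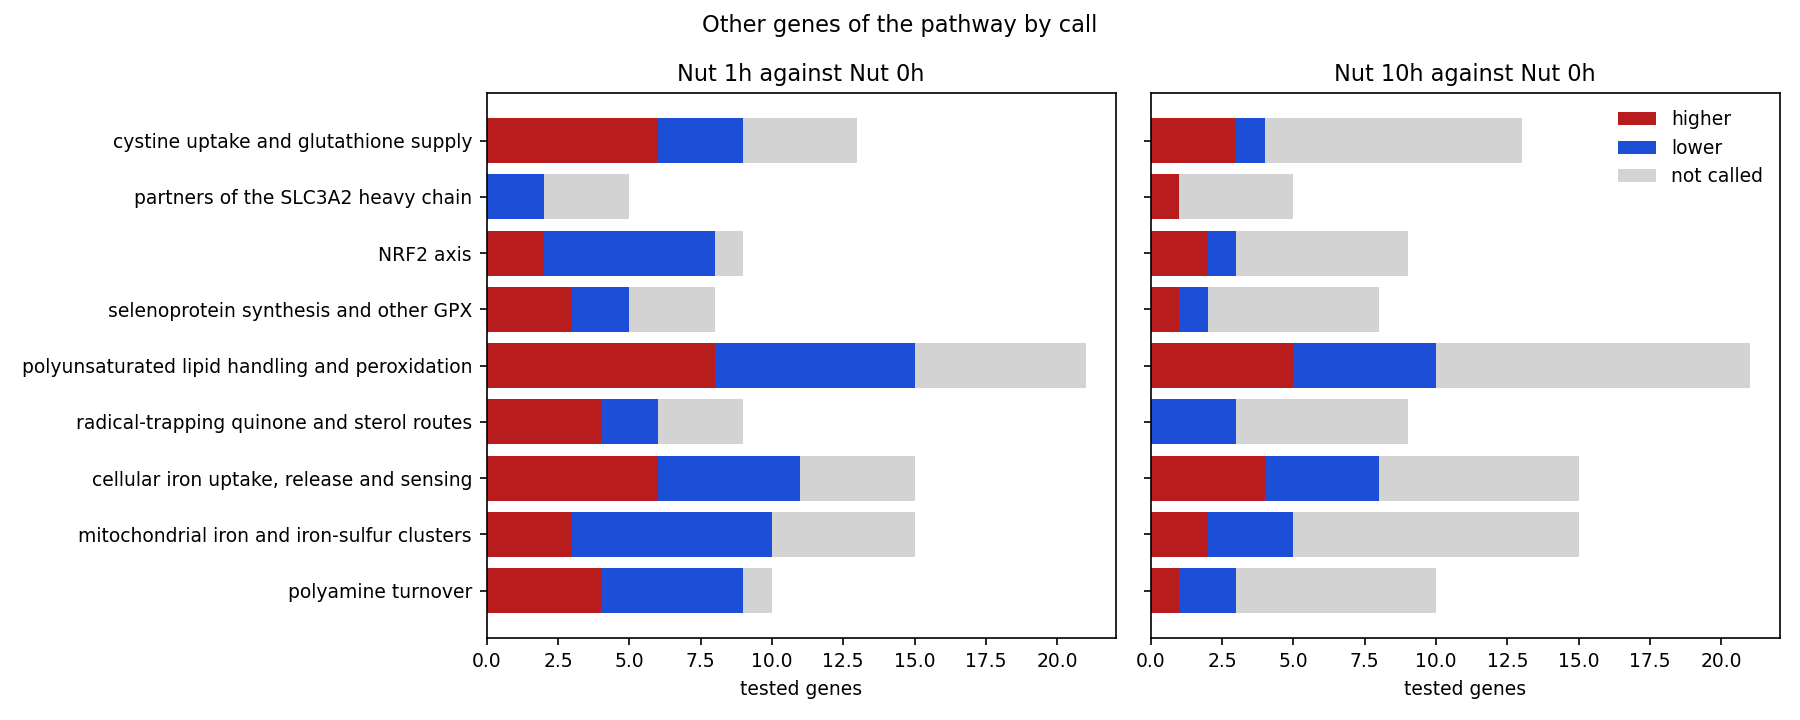
Number of tested genes (horizontal axis) in each of the 9 lists that were called higher (red), lower (blue) or not called (grey) against Nut 0h, at 1 h on the left and 10 h on the right. Summed over the lists and without the GC-content offset, more genes were called at 1 h (36 higher, 39 lower) than at 10 h (19 and 20), although the partners of SLC3A2 had 0 higher at 1 h and 1 at 10 h, and the quinone and sterol routes 2 lower at 1 h and 3 at 10 h. With the offset, 17 higher and 17 lower calls stood at 1 h, 3 and 6 changed direction, and 3 higher and 11 lower were gained. At 10 h all calls stood, and 6 higher and 9 lower were gained. Of all tested genes, 46.2% were called at 1 h and 39.1% at 10 h with the offset.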

How the data were processed

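RNA from 6 HCT116 samples was sequenced. Per the labels and the study's methods, the authors trimmed reads with Trim Galore 0.6.6, aligned them to GRCh37 with STAR 2.7.0f and counted them per gene with featureCounts (Subread 2.0.0), and the deposited values are raw counts. Strand setting and handling of multimapping reads are not given in the sources used here. The authors' table of comparisons, with fold changes and p-values from DESeq2 1.36.0, was used only for gene symbols. Genes were filtered with filterByExpr, scaled by TMM and tested with edgeR 4.0.16 (quasi-likelihood, R 4.3.3) over all 6 libraries with condition as the only term and 3 residual degrees of freedom. The scripts were tested on simulated data for 1 h against control, with 200 changed genes. Without a GC-content trend the fit without offset made 6 false calls. With a simulated trend at Nut 1h it made 5837 false calls among 16113 tested genes, and the fit with the GC-content offset made 7. The share of such calls among the real 1 h calls was not tested. The GC-content offset is a loess trend (span 0.4) per library. Members and lists were chosen with earlier results of these data known. Named genes are all members and, per list and comparison, up to 3 with the largest change among called genes averaging 100 or more normalized counts. Alternatives covered scaling, filters, DESeq2 1.42.0, offsets, thresholds, the replicate block and each library left out.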

Additional observations from a re-analysis of the deposited data

Results flagged for a closer look

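For 9 of the 10 genes the effect at 10 h differed from that at 1 h, by the direct contrast of Nut 10h with Nut 1h (edgeR's quasi-likelihood test, Benjamini-Hochberg adjustment, where 67.9% of all tested genes were called). In that contrast FTH1 was 2.41, SAT1 1.04, GPX4 1.02, FTL 0.95 and AIFM2 0.37 higher on the log2 scale. The AIFM2 call held in 16 of 19 alternative settings. Lower at 10 h than at 1 h were ACSL3 (−1.57), TFRC (−1.48), SLC7A11 (−1.39) and ACSL4 (−0.79). With the GC-content offset FTH1 was 2.33, SAT1 1.47, FTL 0.44, ACSL3 −0.80, TFRC −0.91 and SLC7A11 −0.53, all still called. The contrasts of GPX4 (0.027), ACSL4 (0.054) and AIFM2 (−0.14) were then not called, SLC3A2 was called lower (−0.24), and the part of base composition was not tested. Of all tested genes, 58.4% were called in this contrast with the offset.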

How the results depend on the processing

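Of 30 fold changes (10 genes, 3 contrasts), the scalings, the 1 CPM filter, the added pseudogene counts and the removal of mitochondrial genes changed no call. DESeq2, no low-count filter and a fit of only the 2 groups each lost AIFM2 at 10 h, no filter added GPX4 at 10 h (−0.31), and the length offset lost SLC3A2 at 1 h (−0.12) and added SAT1 (0.31). The GC-content offset turned the direction of 8. At 1 h against control it gave SLC3A2 0.049, ACSL3 −0.083, ACSL4 −0.027, SAT1 −0.42 and AIFM2 0.47, and for 10 h against 1 h SLC3A2 −0.24, ACSL4 0.054 and AIFM2 −0.14. With that offset 4 genes were called lower at 10 h in place of 2, and 3 higher in the 10 h to 1 h contrast in place of 5. Over all tested genes it gave 3353 lower at 10 h in place of 2470, and 4817 higher in the 10 h to 1 h contrast in place of 5658. At an adjusted p of at most 0.01 there was 1 gene higher at 10 h in place of 3, and with a minimum log2 fold change of 0.5 there was 1 lower. Over all tested genes the offset left 3791 higher at 1 h, and the stricter p left 1421 higher and 1559 lower at 10 h, in place of 2340 and 2470. Among the other pathway genes, the stricter p left 12 higher and 13 lower at 10 h.

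Whether same-numbered libraries of different groups shared a culture or batch is not stated for these RNA libraries. Their deviations correlated with r from −0.133 to 0.204, which with 2 libraries per group cannot settle it. The replicate block changed none of the 30 calls. The block together with the GC-content offset gave 0.049 for SLC3A2, −0.083 for ACSL3, −0.027 for ACSL4, −0.42 for SAT1 and 0.47 for AIFM2 at 1 h, −0.24, 0.054 and −0.14 for SLC3A2, ACSL4 and AIFM2 in the 10 h to 1 h contrast, and counts of 4 lower at 10 h and 3 higher in that contrast.

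With each library left out in turn, the count of members higher ranged from 4 to 4 at 1 h, from 1 to 3 at 10 h (1 without Nut 0h replicate 1) and from 4 to 5 between 10 h and 1 h, where AIFM2 was the gene lost. The count lower ranged from 3 to 4, from 2 to 4 (4 without Nut 0h replicate 2) and from 4 to 4. The cause of these differences was not tested, and the counts were not tested against those over all tested genes. With 2 libraries per group, some differences of small size could not be told from the spread between replicates. At 10 h against control GPX4 (−0.26) was not called, while GCLM (−0.27) was.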

Other observations

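The tested genes whose log2 normalized counts, centred on each gene's own mean over the 6 libraries so that only the shape and not the level counted, lay closest to a member, by Euclidean distance among 11575 candidates, were MTX3 for SLC7A11 (distance 0.141), C20orf24 for FTH1 (0.248), SYNCRIP for TFRC (0.100), CXorf57 for ACSL3 (0.123) and AMZ2 for SAT1 (0.132). STAT3 was among the 3 nearest to SAT1 (0.148), and CDK1, the mitotic kinase, among the 3 nearest to ACSL3 (0.131), with log2 fold changes of 0.77 at 1 h and −0.76 at 10 h. Genes this near to GPX4 were C19orf53 (0.082), RAB11B (0.083) and TSSC4 (0.083). FTH1 thus had no gene as near to it as the other members named here had. The distances carry no GC-content offset, so the 1 h trend with GC content enters each profile. With the offset the 1 h value of ACSL3 itself went from 0.71 to −0.08. Shared regulation of these genes was not tested.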
